A study of Mus musculus with 48 samples.

Results

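Transcripts of 8 periportal genes of nitrogen metabolism were followed in mouse liver: 5 genes of the urea cycle (Nags, Cps1, Otc, Ass1 and Asl) and 3 amino acid catabolic enzymes (Gls2, Hal and Sds). They were chosen by name and found by Ensembl identifier, as 8 of the 55416 genes counted in each liver, and all 8 were among the 15711 genes that passed the filter on low counts. In livers homozygous for a dominant-negative LXRα all 8 were lower than in wild-type littermates, by 1.44-fold (Nags) to 2.99-fold (Hal), where 30% of all genes were lower, and with library size alone 6 of the 8 were called, all but Nags and Sds, where 11.1% of all genes were lower. In livers homozygous for an LXRα knockout 2 of the 8 were lower (Cps1 and Sds) over 46 livers, where 7.87% of all genes were, while only Sds was called over all 48 livers and neither with library size alone. None of the 8 was called in heterozygotes of either line, where few genes were called at all (2.3% in the dominant-negative and 0.0191% in the knockout line).

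LXRα, encoded by Nr1h3, is a nuclear receptor activated by oxysterols. The DN mice carry a knock-in of W441R made by CRISPR editing on C57BL/6J, and the KO mice carry a germline Nr1h3 knockout that was backcrossed for more than 10 generations to C57BL/6 and kept at another site, while the labels give the strain C57Bl/6J for every liver. In each line wild-type (WT), heterozygous (HET) and homozygous (HOM) offspring of heterozygous pairs were compared, 8 livers a genotype and 48 in all, so that DN:WT and KO:WT are wild-type at the locus and no allele or agent is shared by all groups other than the diet. All mice ate a western diet with 0.2% cholesterol for 8 weeks, from 8 to about 16 weeks of age, and the study's methods state that 3 mice of each genotype in the DN cohort were killed at 14 weeks, without saying which. The DN mice were male by the study's methods. Xist was at most 0.451 CPM (counts scaled to library size) and the Y-linked Ddx3y at least 68.3 CPM in each of the 48 livers.

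The urea cycle turns ammonia and the nitrogen of aspartate into urea, and in the liver lobule its enzymes are most abundant in the periportal hepatocytes that meet portal blood first, while pericentral hepatocytes take up the remaining ammonia as glutamine. Glutaminase, histidase and serine dehydratase share the periportal zone and release ammonia from amino acids. The genes of this group are known to respond to glucagon, glucocorticoids and dietary protein, in part through C/EBP and CREB factors.

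Whole-liver RNA was sequenced at 5332897 to 16961379 reads on genes per liver, with 2 livers under 10000000 (KO:HET animal 3 and KO:HOM animal 17). Values below are CPM scaled by TMM (trimmed mean of M-values) unless another scale is named. Nr1h3, the targeted gene, had 93.9 ± 9.13 CPM in KO:WT, 59.2 ± 5.95 CPM in KO:HET and 26.97 ± 2.02 CPM in KO:HOM livers (SD, n = 8 each), and 91.5 ± 4.86 CPM in DN:WT against 73.3 ± 3.53 CPM in DN:HOM livers (SD, n = 7 each). By library size alone the direction in the DN line turned, with 76.9, 89.1 and 92.2 CPM of Nr1h3 in DN:WT and 88.4, 93.0 and 97.4 CPM in DN:HOM livers (lowest, median and highest), and the groups overlapped. Counts per gene cannot show the knocked-in codon. A pair of livers stood apart from their labels, animal 10 of DN:WT and animal 12 of DN:HOM, and these are the DN livers with no entry in the study's source data for DN bile acid genes, while its text counts every liver of each group. The source data used here cover no KO liver. Animal 10 was below every other DN:WT liver, and animal 12 above every other DN:HOM liver, for 8 of the 8 genes. For 7 of the 8 genes, all but Otc, animal 10 lay within the range of the 7 other DN:HOM livers and animal 12 within that of the 7 other DN:WT livers. Values are therefore given over the 46 other livers, and the calls of the 8 genes and of the gene lists also over all 48 livers as labelled.

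The genes lie on 6 chromosomes of GRCm39, Cps1 at chr1:67161988-67270418, Otc at chrX:10118503-10187265, Ass1 at chr2:31352181-31410862, Asl at chr5:130040099-130058088, Nags at chr11:102036339-102040303, Hal at chr10:93324629-93355166, Sds at chr5:120614585-120621997 and Gls2 at chr10:128030316-128045873. Otc is X-linked. Exons of a gene on the opposite strand overlap those of Asl (Gm73169, 67 bases), Nags (Gm11586, 553 bases), Sds (Plbd2, 360 bases, and Gm15690, 141 bases) and Gls2 (Spryd4, 726 bases), and the counts used here take reads of the gene's own strand. The processed pseudogene Gm5424 on chromosome 10 carries a near copy of Ass1. Of 120 stretches of 50 bases taken from its transcript, 92 (76.7%) occur unchanged in an Ass1 transcript, and its reads came to 1.06% of those of Ass1.

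The promoters are shown because the 8 genes moved together in DN:HOM livers, and 3 are printed: that of Hal, which had the largest fall, and those of Nags and Gls2, which hold a searched motif. Each is the 250 bases before the transcription start of the canonical GENCODE transcript, read from the GRCm39 genome 5′ to 3′ on the strand of the gene (chr10:93324379-93324628, plus strand for Hal; chr11:102036125-102036374, plus strand for Nags; chr10:128030066-128030315, plus strand for Gls2). Capitals mark the letters TGACG, the core of a cAMP response element, on either strand.
Hal: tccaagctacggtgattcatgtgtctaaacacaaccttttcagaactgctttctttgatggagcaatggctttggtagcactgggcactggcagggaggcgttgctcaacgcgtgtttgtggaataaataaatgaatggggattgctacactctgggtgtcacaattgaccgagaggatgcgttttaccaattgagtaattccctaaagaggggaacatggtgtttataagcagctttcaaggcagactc
Nags: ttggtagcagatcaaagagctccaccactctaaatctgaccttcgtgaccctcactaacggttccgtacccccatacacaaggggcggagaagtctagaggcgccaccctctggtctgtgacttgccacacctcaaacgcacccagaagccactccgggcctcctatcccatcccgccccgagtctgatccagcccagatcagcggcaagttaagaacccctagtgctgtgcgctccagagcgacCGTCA
Gls2: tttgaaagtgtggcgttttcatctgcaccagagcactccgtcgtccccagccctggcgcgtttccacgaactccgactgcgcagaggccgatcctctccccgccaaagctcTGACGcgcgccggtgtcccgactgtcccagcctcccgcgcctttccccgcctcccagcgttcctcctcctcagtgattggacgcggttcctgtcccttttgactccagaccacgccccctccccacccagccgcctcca
The core TGACG was present in 2 of the 8 promoters, at bases 5 to 1 before the start of Nags (on the opposite strand) and at bases 139 to 135 before that of Gls2, and in 3900 of the 21627 promoters of protein-coding genes of the same length. The full element TGACGTCA, which contains the core, and the C/EBP palindrome TTGCGCAA were in 0 of the 8 promoters, and in 1.69% and 0.162% of all promoters. An exact direct repeat of AGGTCA with 4 bases between, the LXR element (DR4), was in 0 of the 8 and in 0 of the 21627 windows. These matches describe letters in a short window.

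Levels between genes were compared as TMM-scaled CPM per kilobase of exon, where the exons of all annotated transcripts of a gene were joined. In KO:WT livers Ass1 (697) and Cps1 (637) were the most abundant on that scale, with ranges over the 8 livers that overlapped, and every Cps1 value was above every value of Sds. Sds (198), Otc (124), Asl (100.1), Gls2 (70.1) and Hal (50.5) followed, each overlapping its neighbour in this order. By CPM without the length, Asl (mean 667) stood above Otc (550) and Sds (369) in KO:WT livers. Nags, which makes the N-acetylglutamate that activates Cps1, was lowest at 25.3 CPM per kilobase (21.02 to 30.1), below every value of Hal (38.2 to 68.9). The order was the same in DN:WT livers except that Otc (121) stood above Sds (89.3), with ranges that overlapped. In DN:HOM livers Ass1 (249.6) and Cps1 (145) were again highest, and Nags (17.3) stood above Hal (14.99), with ranges that overlapped in both pairs. Within a group the spread differed between genes: in KO:WT livers the coefficient of variation of CPM was 12.2% for Nags, but 35.2% for Ass1 and 39.7% for Sds.

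**Figure D1:**
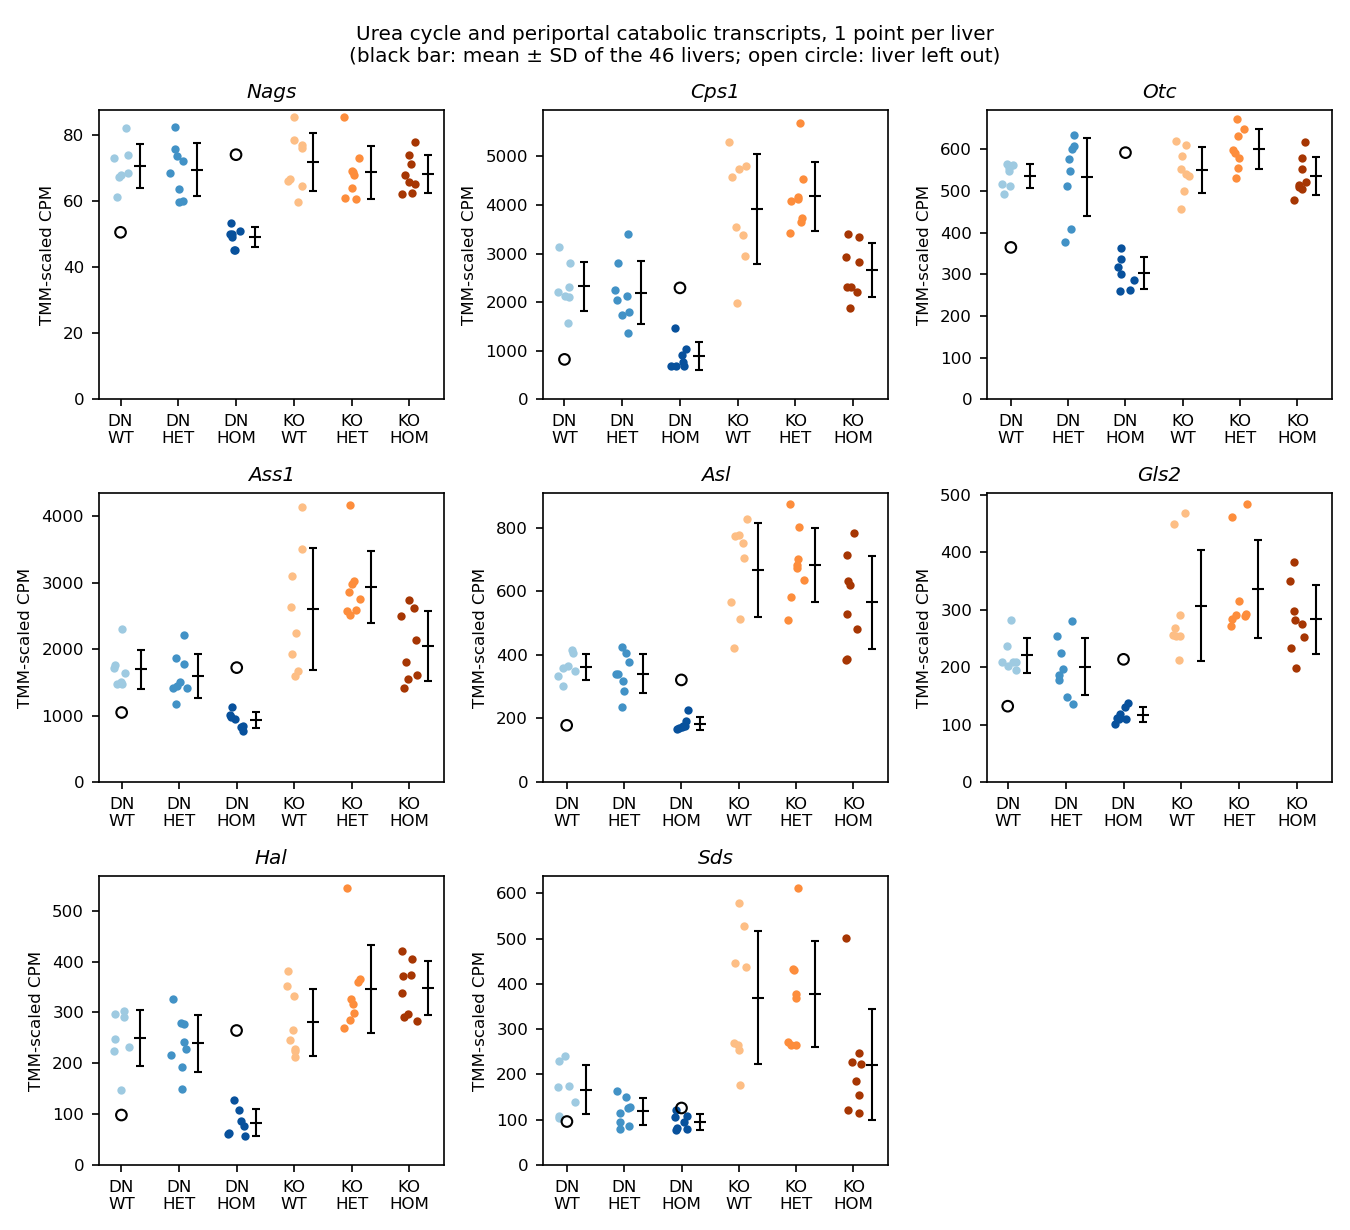
TMM-scaled CPM of the 8 genes in each liver (vertical axis, from 0) by genotype group (horizontal axis), with the mean and SD of the 46 livers in black and the 2 left-out livers as open circles. The 7 DN:HOM livers lie below all 7 DN:WT livers for 7 of the 8 genes. Each open circle lies outside the range of the other livers of its label, but close to them for Sds.

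The first question was how the 5 urea cycle transcripts of DN:HOM livers compared with those of DN:WT littermates, 7 livers against 7. All 5 were lower by edgeR (quasi-likelihood test, p adjusted by Benjamini-Hochberg), and so were the other 3 genes, 8 of 8 against 30% of all 15711 genes called lower. The median log2 fold change of the 8 genes was -0.89, beside -0.012 over all genes tested. For 7 of the 8 genes, all but Sds, no DN:HOM liver reached the lowest DN:WT liver, which held in that direction for 15.1% of all genes. In the values that follow, the lowest, median and highest liver of each group are given.

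Nags, N-acetylglutamate synthase, had 61.3, 68.6 and 82.1 CPM in DN:WT and 45.1, 49.97 and 53.3 CPM in DN:HOM livers. The groups did not overlap, yet this was the smallest fall of the 8, with a log2 fold change of -0.52 (SE 0.08, edgeR adjusted p = 2.2e-07). Cps1, carbamoyl phosphate synthetase of the mitochondrial matrix, which takes up free ammonia at the entry of the cycle, had 1566, 2204 and 3129.7 CPM in DN:WT livers. Its DN:HOM livers had 685, 767 and 1469.6 CPM, and the highest of them lay just below the lowest DN:WT liver. Its log2 fold change was -1.38 (SE 0.19, edgeR adjusted p = 5.2e-08), the largest fall in the urea cycle. Otc, which joins carbamoyl phosphate to ornithine, had 493, 548 and 565 CPM in DN:WT livers, a tight group, and 259, 299.6 and 364 CPM in DN:HOM livers. These groups were well apart, with a log2 fold change of -0.82 (SE 0.09, edgeR adjusted p = 1.8e-10).

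Ass1, the cytosolic synthetase that brings in aspartate, had 1475, 1639.6 and 2305 CPM in DN:WT and 771, 952 and 1136 CPM in DN:HOM livers. All DN:HOM livers were lower, and one DN:WT liver, animal 28, stood above the other 6. The log2 fold change was -0.86 (SE 0.17, edgeR adjusted p = 3.0e-05). Asl, which splits argininosuccinate into arginine and fumarate, had 302, 359 and 416 CPM in DN:WT and 168, 175 and 227 CPM in DN:HOM livers. Its groups did not overlap either, and its log2 fold change was -0.98 (SE 0.14, edgeR adjusted p = 1.6e-07).

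Of the 3 amino acid catabolic enzymes, Hal, the histidase that removes ammonia from histidine, fell the most among all 8 genes. It had 147, 248 and 303 CPM in DN:WT and 57.6, 76.9 and 127 CPM in DN:HOM livers, with no overlap. Its log2 fold change was -1.58 (SE 0.18, edgeR adjusted p = 3.9e-10). Gls2, the liver glutaminase that feeds ammonia to Cps1, had 196, 209 and 281 CPM in DN:WT and 101, 112 and 137 CPM in DN:HOM livers. Its groups were also separate (log2 fold change -0.91, SE 0.16, edgeR adjusted p = 6.7e-06). Sds, the serine dehydratase that makes pyruvate from serine, had 103, 171 and 239.6 CPM in DN:WT and 77.1, 95.5 and 122 CPM in DN:HOM livers. It was the gene whose groups overlapped, with 4 of the 7 DN:HOM livers below every DN:WT liver, and its log2 fold change was -0.80 (SE 0.26, edgeR adjusted p = 0.0071).

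With all 48 livers as labelled, all 8 genes were still called lower in DN:HOM livers, against 25% of 15621 genes. The log2 fold changes were smaller, -0.39 for Nags, -1.01 for Cps1, -0.61 for Otc, -0.66 for Ass1, -0.77 for Asl, -0.71 for Gls2, -1.13 for Hal and -0.68 for Sds, with edgeR adjusted p from 0.00010 (Otc) to 0.021 (Sds). The DN:HOM and DN:WT groups then overlapped for each of the 8. Animal 12, labelled DN:HOM, had 2293 CPM of Cps1, 592 CPM of Otc and 264 CPM of Hal. Animal 10, labelled DN:WT, had 820.3 CPM, 364 CPM and 98.3 CPM of the same genes. No single liver decided a call in DN:HOM against DN:WT: all 8 were called with each of the 14 compared livers left out in turn.

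The scaling of libraries bears on the size of these falls. TMM factors were 1.20 to 1.33 in DN:HOM and 0.922 to 0.983 in DN:WT livers, and with library size alone the median of all genes moved from -0.012 to 0.42. A scaling shifts all genes together, so the falls relative to that median, from -0.51 to -1.58, hardly depend on it by construction. On the plain scale the fold changes were -0.09 for Nags (edgeR adjusted p = 0.27) and -0.36 for Sds (edgeR adjusted p = 0.21), and the other 6 genes were still called lower, against 11.1% of all genes. On that scale Otc, Ass1, Asl and Gls2, 4 of the 8, had groups without overlap, which in that direction held for 5.24% of all genes.

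**Figure D2:**
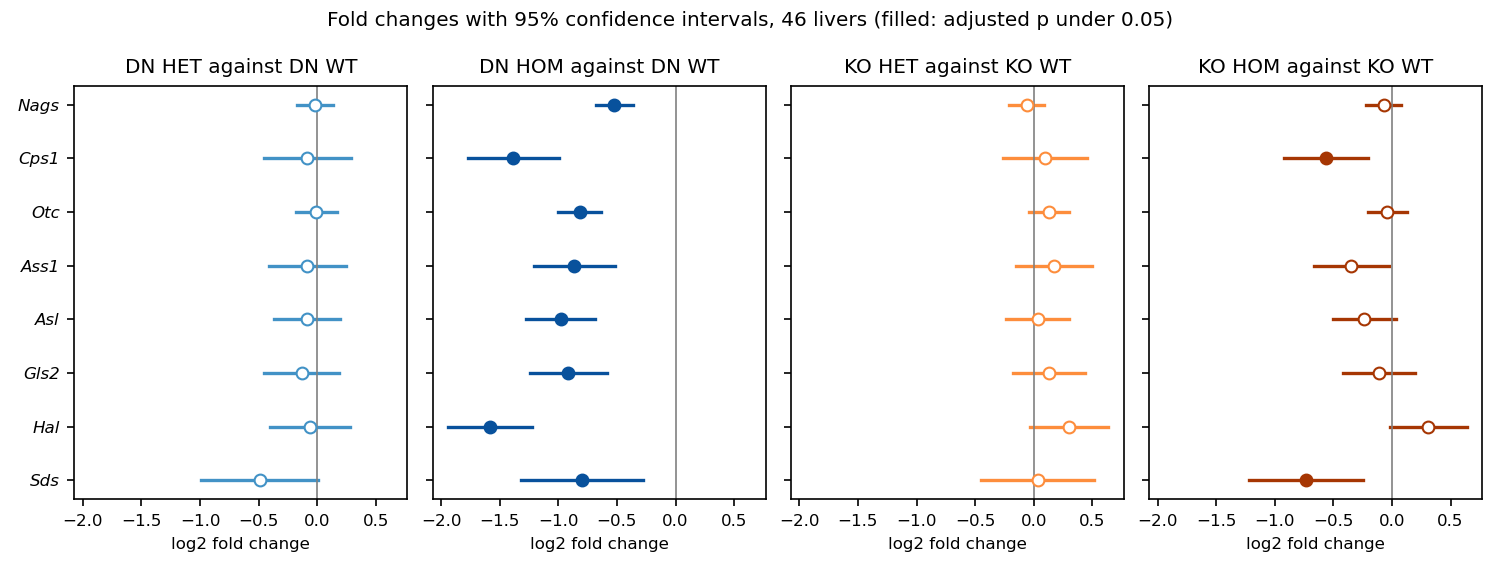
Log2 fold change (horizontal axis) of each gene with its 95% confidence interval in the 4 comparisons with wild-type livers, over 46 livers, with filled points where the adjusted p is under 0.05. All 8 points are filled and below 0 in DN:HOM, 2 are filled in KO:HOM, and none is filled in the heterozygotes.

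The second comparison set the KO:HOM livers against KO:WT littermates, 8 against 8. Of the 8 genes 2 were called lower (Cps1 and Sds) and 0 higher, where 7.87% of all genes were called lower. The median log2 fold change of the 8 was -0.17, beside -0.022 over all genes. The groups overlapped for each of the 8 genes, and non-overlap in that direction was seen for 0.401% of all genes.

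Cps1 had 1983, 4063 and 5306 CPM in KO:WT and 1889, 2575 and 3409.8 CPM in KO:HOM livers. The groups overlapped, but the KO:WT median lay above every KO:HOM liver, and the log2 fold change was -0.56 (SE 0.18, edgeR adjusted p = 0.021). Sds had 177, 353 and 579 CPM in KO:WT and 115, 203 and 501 CPM in KO:HOM livers, where animal 11 held the highest value and 3 livers were below every KO:WT liver. Its log2 fold change was -0.73 (SE 0.24, edgeR adjusted p = 0.025).

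These calls depended on the livers and the scaling. Over all 48 livers, which adds no KO liver but shares the estimate of spread with the 2 added ones, only Sds was called (edgeR adjusted p = 0.039), against 4.12% of genes, while Cps1 had -0.55 (edgeR adjusted p = 0.097). With library size alone neither was called, with edgeR adjusted p of 0.065 for Cps1 (fold change -0.44) and 0.077 for Sds (-0.60). Sds was also not called in the KO livers fitted alone (-0.73, edgeR adjusted p = 0.070) or without the livers under 10000000 reads (-0.64, edgeR adjusted p = 0.062). Cps1 was not called without KO:HOM animal 26 (edgeR adjusted p = 0.053) or KO:WT animal 34 (edgeR adjusted p = 0.060). Sds was not called without KO:HOM animals 17, 20 or 27 or without KO:WT animals 5, 32 or 33, with edgeR adjusted p from 0.050 to 0.073.

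The other 6 genes did not pass the threshold in KO:HOM livers. Ass1 had 1601, 2439 and 4136 CPM in KO:WT and 1422, 1972 and 2737 CPM in KO:HOM livers, a wide overlap, with a log2 fold change of -0.35 (95% interval -0.67 to -0.02, edgeR adjusted p = 0.12). Asl ranged over 421 to 826 and 385 to 782 CPM in these groups, with -0.24 (95% interval -0.51 to 0.03, edgeR adjusted p = 0.23). The intervals were narrower for Otc, -0.04 (-0.21 to 0.13), and Nags, -0.07 (-0.22 to 0.08), and neither reaches the fold changes of these genes in DN:HOM livers. Gls2 had -0.11 (95% interval -0.42 to 0.19). Hal was the one gene above its wild-type level, with 212, 256 and 382 CPM in KO:WT and 283, 355 and 421 CPM in KO:HOM livers. All KO:HOM livers lay above the KO:WT median, 2 of them above every KO:WT liver, and the log2 fold change was 0.31 (95% interval -0.02 to 0.64, edgeR adjusted p = 0.19).

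In heterozygotes 0 of the 8 genes were called in either line. Among all genes 2.3% were called in DN:HET and 0.0191% in KO:HET livers in either direction. By edgeR's quasi-likelihood test 0 of the 8 had an unadjusted p under 0.05 in either line, and DESeq2 called 0. Sds had the lowest fold change in DN:HET livers, with 79.9, 121 and 164 CPM against 103, 171 and 239.6 CPM in DN:WT livers. Of the 8 DN:HET livers 3 were below every DN:WT liver, and the log2 fold change was -0.49 (95% interval -0.99 to 0.01, edgeR adjusted p = 0.39). The other 7 genes lay between -0.13 (Gls2, 95% interval -0.45 to 0.18) and -0.01 (Otc, 95% interval -0.18 to 0.17) in DN:HET livers. Cps1 had 1355, 2091 and 3406 CPM in DN:HET livers, which spans the DN:WT range on both sides.

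A pair of DN:HET livers, animals 4 and 22, stood apart from the other 6. Their summed macrophage markers were 1103 and 1169.7 CPM, within the range of the 7 DN:HOM livers and above each of the 7 DN:WT livers, and their hepatocyte sums, 47438 and 44647 CPM, were the lowest of the group. Their T cell markers summed to 25.2 and 27.2 CPM, beside 2.16 to 4.12 CPM in DN:WT livers. Otc had 409 and 377 CPM, Asl 236 and 286 CPM, Gls2 137 and 148 CPM and Ass1 1173 and 1444 CPM in these livers, in each case below the 7 DN:WT livers. Values below the 7 DN:WT livers also occurred in DN:HET livers outside the pair. These were Ass1 in animals 16 and 20 (1415 and 1423 CPM) and Gls2 in animals 14 and 20 (187 and 178 CPM). Sds in animals 14 and 20 (85.6 and 79.9 CPM), and Nags (59.8 CPM) and Cps1 (1355 CPM) in animal 16, were also among them. Cps1, with 2052 and 1738 CPM, and Hal, with 217 and 149 CPM, lay within the DN:WT range in both animals. Nags (63.7 and 60.1 CPM) was within it in animal 4 and below it in animal 22, and Sds (95.9 and 128 CPM) below it in animal 4 and within it in animal 22. In DN:HET livers 5 of 6 T cell markers and 2 of 8 macrophage markers (Lyz2 and Adgre1) were called higher, against 2.23% of all genes, and over all 48 livers 2 and 0, against 0.25% of genes. Without the pair, a choice made after seeing the data, 0 of these markers were called, and calls over all genes fell from 361 to 2, both higher (0.0126% of 15849 genes). Of the 8 genes 0 were called without the pair, and their log2 fold changes ran from -0.46 (Sds) to 0.12 (Otc), with 6 of the 8 above 0. The part of these other cells in the values of the 8 genes was not tested.

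In KO:HET livers the fold changes ran from -0.06 (Nags, 95% interval -0.21 to 0.09) to 0.30 (Hal, 95% interval -0.03 to 0.63), and 7 of the 8 were above 0. Hal had 269, 321 and 544 CPM in KO:HET livers, and its median was above that of KO:WT livers. Nr1h3 itself was 1.59-fold lower in KO:HET than in KO:WT livers (edgeR adjusted p = 6.0e-11).

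Whether the homozygous effect differed between the lines was tested as the difference of differences, each line against its own wild-type livers. The fall was larger in DN:HOM livers for 6 of the 8 genes by edgeR (quasi-likelihood test, p adjusted by Benjamini-Hochberg), where 18.3% of all genes were called in that direction. The difference of log2 fold changes was largest for Hal at -1.89 (SE 0.24, edgeR adjusted p = 4.6e-08), which was lower in DN:HOM and not lower in KO:HOM livers. It was -0.82 for Cps1 (edgeR adjusted p = 0.011), -0.80 for Gls2 (0.0043), -0.78 for Otc (2.7e-06), -0.74 for Asl (0.0026) and -0.45 for Nags (0.00087). Ass1 did not pass, at -0.52 (95% interval -0.99 to -0.05, edgeR adjusted p = 0.079). Sds had -0.80 in DN:HOM and -0.73 in KO:HOM livers, a difference of -0.07 whose 95% interval ran from -0.77 to 0.64.

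Most of these calls required that the 2 livers be left out. With all 48 livers the difference was called for Otc (-0.58, edgeR adjusted p = 0.023) and Hal (-1.45, edgeR adjusted p = 0.0053), 2 of the 8 against 6.42% of genes. The other 4 had -0.33 for Nags, -0.46 for Cps1, -0.54 for Asl and -0.60 for Gls2, with edgeR adjusted p from 0.084 to 0.35. With library size alone, over 46 livers, Otc, Asl and Hal were called, 3 of the 8 against 8.5% of genes, and the median of all genes moved to 0.31. Otc and Hal were called in this comparison under each of the 8 alternatives run.

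**Figure D3:**
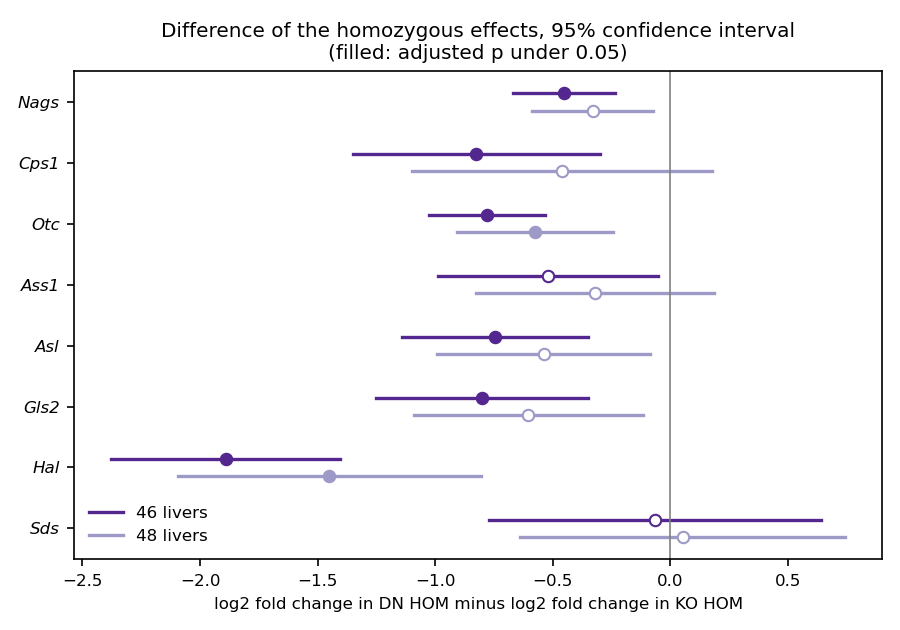
Difference between the homozygous log2 fold changes of the lines (DN minus KO, horizontal axis) for each gene with its 95% confidence interval, over 46 and over 48 livers, with filled points where the adjusted p is under 0.05. Over 46 livers 6 points are filled, and over 48 livers those of Otc and Hal.

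The wild-type livers of the lines were also compared, since they come from separate colonies. Of the 8 genes 5 were lower in DN:WT than in KO:WT livers, against 6.47% of all genes. Sds had 103, 171 and 239.6 CPM in DN:WT and 177, 353 and 579 CPM in KO:WT livers, a log2 difference of -1.15 (edgeR adjusted p = 0.0015). Asl followed with -0.88 (edgeR adjusted p = 2.7e-05), and every DN:WT liver (302 to 416 CPM) was below every KO:WT liver (421 to 826 CPM). It was the only 1 of the 8 genes without overlap. By library size alone its groups overlapped, with the highest DN:WT liver at 395 CPM and the lowest KO:WT liver at 388 CPM. The share of all genes without overlap was not counted for this comparison. Cps1 differed by -0.75, Ass1 by -0.62 and Gls2 by -0.48 (edgeR adjusted p = 0.0046, 0.0097 and 0.041). The call of Gls2 was lost under upper-quartile scaling, library size alone and no filter on low counts, with edgeR adjusted p from 0.052 to 0.073. Nags (-0.02, 95% interval -0.18 to 0.13), Otc (-0.04, -0.21 to 0.14) and Hal (-0.17, -0.51 to 0.17) did not pass. The same 5 genes were called over all 48 livers, against 6.2% of genes. Colony, site and any difference in handling cannot be told apart from the line here. The KO:HOM livers had 385, 574 and 782 CPM of Asl, and 6 of the 8 were above every DN:WT liver.

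A list of 20 genes around the cycle was also read. It holds enzymes and carriers of glutamate, aspartate, alanine, ornithine and glutamine, an ammonium transporter, a carbonic anhydrase, 2 mitochondrial sirtuins, and Glul, Oat and Cad, which draw on the same substrates. In DN:HOM livers 15 were lower, 0 higher and 5 not called, with a median of -0.73, and in KO:HOM livers 2 were lower, 1 higher and 17 not called, with a median of -0.15. Of all genes 30% were called lower in DN:HOM and 7.87% in KO:HOM livers, so that 2 of 20 is near the share over all genes. With 48 livers 13 were lower and 0 higher in DN:HOM, and 2 lower and 1 higher in KO:HOM livers. In those fits 25% and 4.12% of all genes were called lower. Car5a, the mitochondrial carbonic anhydrase that supplies bicarbonate to Cps1, had 87.5, 92.0 and 129 CPM in DN:WT and 18.2, 19.3 and 32.2 CPM in DN:HOM livers. These groups were far apart, with the largest fall of the list, -2.12 (edgeR adjusted p = 1.6e-16), against -0.21 in KO:HOM livers (edgeR adjusted p = 0.26). All 3 mitochondrial carriers of the list also fell in DN:HOM livers, Slc25a13, which exports aspartate for Ass1, by 0.86, Slc25a15, the ornithine carrier, by 0.58 and Slc25a22, a glutamate carrier, by 0.41 on the log2 scale (edgeR adjusted p = 8.8e-08, 9.4e-05 and 0.028), and over all 48 livers Slc25a22 was not called (edgeR adjusted p = 0.13). Glud1, glutamate dehydrogenase, had the smallest called fall, -0.37 (edgeR adjusted p = 0.00013). Got1, the cytosolic aspartate aminotransferase, fell in both lines, with -1.34 in DN:HOM (edgeR adjusted p = 0.00022) and -1.24 in KO:HOM livers (edgeR adjusted p = 0.0014). Slc38a2, an amino acid carrier, was the other called fall in KO:HOM livers at -0.64 (edgeR adjusted p = 0.0013). The gene called higher in KO:HOM livers was Rhbg, an ammonium transporter (1.31, edgeR adjusted p = 0.0097).

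Related genes outside the periportal group were also read, of which Cad, Glul, Oat and Slc1a2 belong to the list of 20. Sdsl, the serine dehydratase-like gene, had 0.08 in DN:HOM livers (edgeR adjusted p = 0.71) and fell by 0.66 in KO:HOM livers (edgeR adjusted p = 0.0029). Cad, which holds the carbamoyl phosphate synthetase of pyrimidine synthesis, was called in neither (0.13 and -0.36). Of the pericentral nitrogen genes, Glul, glutamine synthetase, fell by 0.74 and Oat, ornithine aminotransferase, by 1.46 on the log2 scale in DN:HOM livers, and they had 0.04 and 0.23 in KO:HOM livers. Slc1a2, a glutamate carrier of the same zone, had -0.18 in DN:HOM livers (edgeR adjusted p = 0.42).

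The steps after Hal in histidine breakdown moved in the same direction as Hal in DN:HOM livers. Uroc1, urocanase, had 411, 482 and 524 CPM in DN:WT and 209, 246 and 279 CPM in DN:HOM livers, which did not overlap (-0.95, edgeR adjusted p = 7.7e-12). Amdhd1, the next enzyme, had -0.52 and Ftcd, which passes the formimino group to folate, -1.15 (edgeR adjusted p = 0.00073 and 1.2e-14). In KO:HOM livers, where Hal had 0.31, Uroc1 had 0.02, Amdhd1 -0.06 and Ftcd -0.23 (edgeR adjusted p = 0.89, 0.78 and 0.042). Over a list of 29 amino acid catabolic enzymes, 27 were lower and 0 higher in DN:HOM livers, with a median of -1.09, and 7 were lower and 0 higher in KO:HOM livers, with a median of -0.11, against 30% and 7.87% of all genes called lower. The largest fall among them in DN:HOM livers was that of Hpd, an enzyme of tyrosine breakdown, at -1.92, and the smallest called one that of Agxt2 at -0.47, while in KO:HOM livers the called ones ran from Tat (-0.84) to Ftcd (-0.23). Of the 29, 26 were lower in DN:HOM and 2 in KO:HOM livers over all 48 livers, against 25% and 4.12% of genes, so that the count in KO:HOM livers is then near the share over all genes.

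Zonation as such was followed with 8 other periportal and 7 pericentral genes, of which Glul, Oat and Slc1a2 are also in the list of 20. Of the other periportal genes 3 were lower (Cyp2f2 at -1.35, Etnppl at -1.03 and Igfals at -0.92), 2 higher (Cdh1 at 2.84 and Hsd17b13 at 0.51) and 3 not called in DN:HOM livers, which is near the shares of all genes called lower (30%) and higher (29.1%). Cdh1 is also expressed by bile duct cells. Of the pericentral genes 3 were lower (Cyp2e1 at -1.73, Oat and Glul) and 4 were not called, Cyp1a2 (-0.08), Axin2 (0.21), Lgr5 (-0.13) and Slc1a2. In KO:HOM livers 0 of the 8 were lower and 2 higher (Ctsc at 0.66 and Pigr at 0.51), and 0 of the 7 pericentral genes were called, where 7.87% of all genes were lower and 11.5% higher. These counts were equal over all 48 livers. There 25% of all genes were lower and 23% higher in DN:HOM, and 4.12% lower and 8.79% higher in KO:HOM livers.

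**Figure D4:**
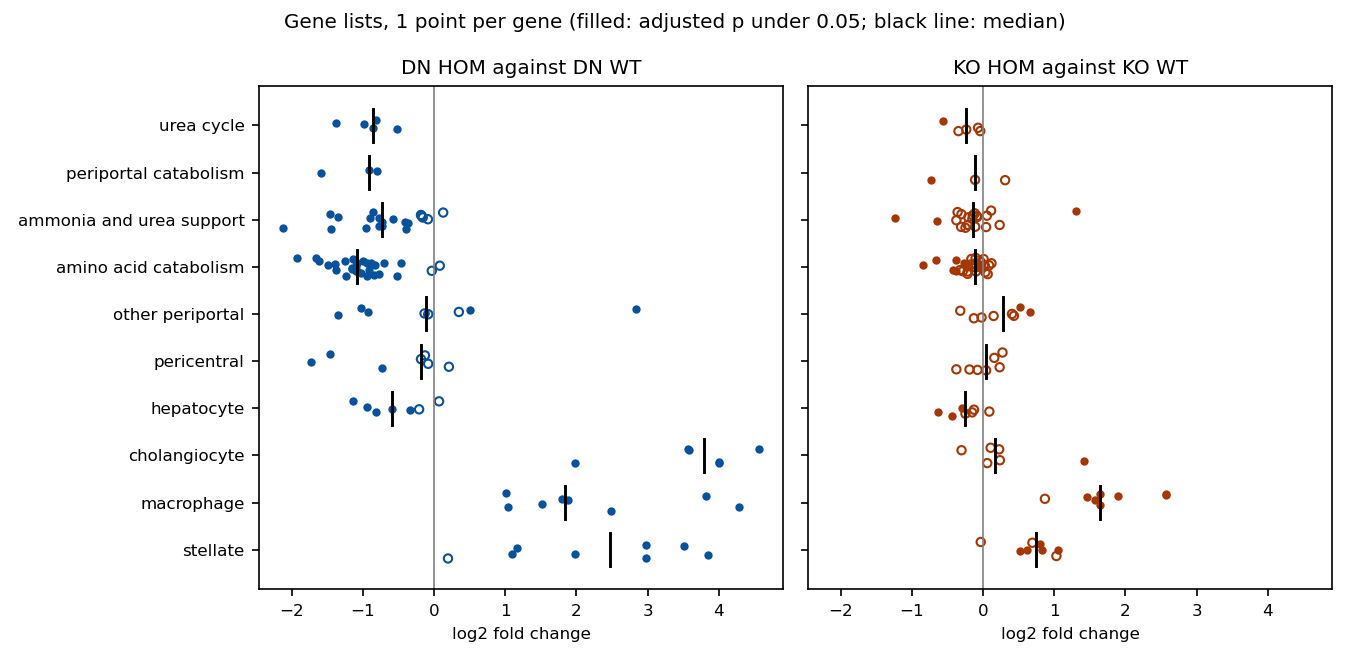
Log2 fold change (horizontal axis) of each gene of 10 lists (vertical axis) in DN:HOM and KO:HOM livers over 46 livers, with filled points for an adjusted p under 0.05 and the median as a black line. In DN:HOM livers the medians of the urea cycle and amino acid lists lie below 0 and those of the cholangiocyte, macrophage and stellate lists above 0, while in KO:HOM livers the 29 amino acid catabolic enzymes have a median of -0.11, with 7 of them called lower.

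Markers of some other cell types were higher in DN:HOM livers, where the 8 genes were lower. Several were also higher in KO:HOM livers, where most of the 8 genes were not called. In DN:HOM livers 6 of 6 cholangiocyte, 8 of 8 macrophage and 7 of 8 stellate cell markers were higher, against 29.1% of all genes. In KO:HOM livers these were 1 of 6, 7 of 8 and 5 of 8, against 11.5% of all genes. Over all 48 livers they were 6 of 6, 7 of 8 and 7 of 8 in DN:HOM, against 23% of genes, and 0 of 6, 7 of 8 and 2 of 8 in KO:HOM livers, against 8.79% of genes. The summed cholangiocyte markers were 30.5 to 70.0 CPM in DN:WT and 729 to 1076 CPM in DN:HOM livers, and 24.7 to 101 and 36.5 to 183 CPM in KO:WT and KO:HOM livers. The summed macrophage markers were 141 to 271 CPM in DN:WT, 1007 to 1613 CPM in DN:HOM, 104.2 to 276 CPM in KO:WT and 334 to 1298 CPM in KO:HOM livers, and the summed stellate cell markers 187 to 271, 838 to 1170.2, 178 to 419 and 271 to 523 CPM in the same order. None of these 22 markers was at 0 reads throughout a group. Of 7 hepatocyte markers 5 were lower, 0 higher and 2 not called in DN:HOM livers, the called ones running from -1.14 (Alb, albumin) to -0.34 (Apob, an apolipoprotein), where 30% of all genes were lower. In KO:HOM livers 3 of the 7 were lower and 4 not called, where 7.87% of all genes were lower. With all 48 livers these counts were 5 and 1, against 25% and 4.12% of genes called lower. Their summed level was 62166 to 78677 CPM in DN:WT and 35849 to 44149.6 CPM in DN:HOM livers, and 70153 to 93026 and 51381 to 72351 CPM in KO:WT and KO:HOM livers. The 5 urea cycle genes summed to 3999.7 to 6481 and 1929 to 3247 CPM in the same livers, and to 4593 to 10409 and 4397 to 7109 CPM in KO:WT and KO:HOM livers. Animal 10, labelled DN:WT, had a urea cycle sum of 2461 CPM beside a cholangiocyte sum of 1172 CPM, and animal 12, labelled DN:HOM, 5003 CPM beside 43.6 CPM. The part of these other cells in the falls was not tested, and in whole-liver RNA fewer hepatocytes and less RNA per hepatocyte cannot be told apart.

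**Figure D5:**
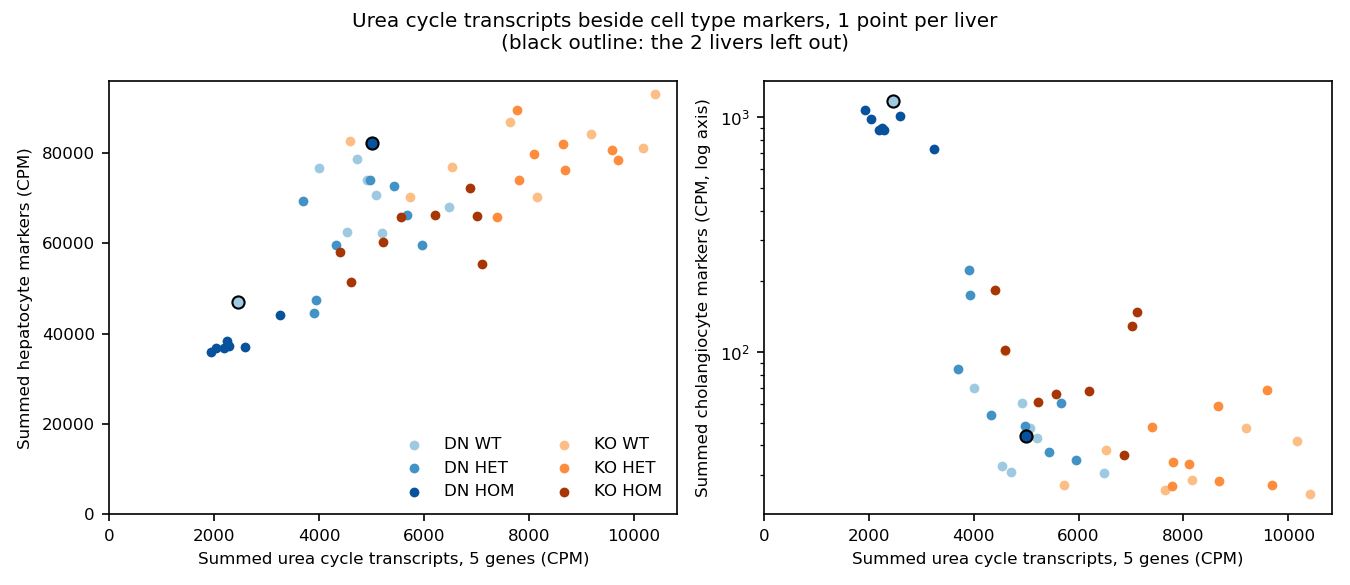
Summed TMM-scaled CPM of the 5 urea cycle genes (horizontal axis) beside the summed hepatocyte markers (left) and cholangiocyte markers (right, log axis), 1 point per liver coloured by group. The 7 DN:HOM livers have low urea cycle sums and high cholangiocyte sums, and the outlined livers, animals 10 and 12, sit with the other label.

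The 8 genes varied together to different degrees. Pearson's r of log2 CPM was computed for the 28 pairs over 46 livers after subtracting each group's mean, so that the differences between genotypes do not enter, although the livers share library scaling. The median r was 0.40, the highest 0.73 between Ass1 and Gls2, and the lowest -0.012 between Nags and Sds. Ass1 also varied with Sds (0.73) and Asl (0.70), and Cps1 with Asl (0.57). Otc varied with Hal (0.64) and Gls2 (0.59) but little with Sds (0.07), and Hal had 0.02 with Sds. These are descriptions over livers, with no test.

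Outside the 8, the genes with the most similar pattern were taken by Pearson's r of log2 CPM over the 46 livers, among 11714 genes with a mean log2 CPM above 1, with the genotype differences left in. For Ass1 they were Gm5424 (0.969), Got1 (0.934), Sfxn2 (0.911), the first of them its pseudogene, whose reads may be shared. For Sds they were Gm15690 (0.958), Got1 (0.916), Slc25a51 (0.899), of which Gm15690 overlaps Sds on the other strand, so that its reads may come in part from Sds. Got1 was thus among the 3 nearest genes for both. For Cps1 they were Sec14l4 (0.959), Aass (0.944), Hpd (0.941), where Aass and Hpd act in lysine and tyrosine breakdown, and for Hal Sardh (0.949), Cyp4f15 (0.946), Clcn2 (0.946). For Asl they were Gm16573 (0.948), Fh1 (0.944), Ahcy (0.943), for Otc Serpina1b (0.962), Amy1 (0.956), Mccc1 (0.948), for Gls2 Uroc1 (0.921), Slc38a3 (0.916), Slc38a4 (0.911) and for Nags Afm (0.843), Slc25a23 (0.842), Eprs1 (0.841). Uroc1, the enzyme after Hal, was the nearest gene to Gls2, followed by the glutamine carrier Slc38a3. Nags had the lowest values in this comparison.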

How the data were processed

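Whole-liver RNA of 48 mice was sequenced with a stranded mRNA kit. The authors deposited raw read counts per gene for each liver, made with STAR 2.5.0a on GRCm39 according to the submitters' processing notes, and the counts of the gene's own strand were used. Groups came from the labels. The study's source data for DN bile acid genes were matched to 22 of the 24 DN livers by 2 ratios between genes, within 0.000486% where the next liver differed by at least 2.96%. The 2 DN livers without a match were left out, all 24 KO livers were kept unmatched, and no value of that source data was used further. Genes were filtered with filterByExpr, scaled by TMM and tested with edgeR 4.0.16 (quasi-likelihood, R 4.3.3) with 1 mean per group of 6, and p-values were adjusted over all 15711 genes (Benjamini-Hochberg), with a threshold of 0.05. CPM are TMM-scaled. DESeq2 1.42.0, other scalings, filters, strand counting, livers and depth were alternatives, and the model was tested on simulated data.

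The genes, the gene lists and the tests were chosen with earlier results of these data known. The text names the 8 genes, Nr1h3, the largest and smallest called changes of each list, related genes and next steps of the 8, and for each of the 8 the 3 genes most like it. A gene chosen with them is not reported here. Of 149 list genes 148 were found by symbol. Prior count 2 was used for log2 CPM. Figures were drawn with matplotlib 3.10.9.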

Additional observations from a re-analysis of the deposited data

Results flagged for a closer look

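Each of the 8 genes was searched in each group of 7 or 8 livers, DN:WT and DN:HOM with and without the left-out liver, for a single liver far from the others, 64 groups of values, and 12 values met the limit, where chance gives about 1 in 20. Of these 12, 7 belong to the 2 livers that stand apart from their labels. Animal 12, labelled DN:HOM, was far above the other DN:HOM livers for Nags (74.0 CPM), Otc (592 CPM), Ass1 (1723 CPM), Asl (321 CPM), Hal (264 CPM) and Gls2 (214 CPM). Animal 10, labelled DN:WT, was far below the other DN:WT livers for Otc (364 CPM). The other 5 were high values of a gene in 1 liver, Ass1 in DN:WT animal 28 (2305 CPM) and KO:HET animal 9 (4177 CPM), Asl in DN:HOM animal 33 (227 CPM), Hal in KO:HET animal 16 (544 CPM) and Sds in KO:HOM animal 11 (501 CPM).

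The homozygous log2 fold change differed between the lines, by the test of the difference itself over 46 livers, for Nags (-0.45), Cps1 (-0.82), Otc (-0.78), Asl (-0.74), Hal (-1.89) and Gls2 (-0.80). With all 48 livers it did so for Otc and Hal.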

How the results depend on the processing

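Of the fold changes of the 8 genes under other settings, 380 kept their direction and side of the threshold, 17 kept the direction and lost the call, and 19 changed sign, none of these 19 being called. The count of the 8 genes lower in KO:HOM livers was 2, and it was 1 over all 48 livers, with each study alone and without the livers under 10000000 reads, and 0 with library size alone. The count with a larger fall in DN:HOM than in KO:HOM livers was 6, and 2 over all 48 livers and 3 with library size alone. Over all genes the calls were 2016 over all 48 livers in KO:HOM (3048 over 46), 1636 in the difference between lines (5456 over 46), 39 over all 48 livers, 617 by DESeq2, 239 with each study alone and 2 without DN:HET animals 4 and 22 (a choice added after seeing the data) in DN:HET (361 over 46), and 10 by DESeq2 and 8 without a filter in KO:HET (3 over 46). The causes of these shifts were not tested. Leaving out 1 liver at a time, an alternative added after seeing the data, gave 8 to 8 of the 8 genes lower in DN:HOM (14 fits) and 1 to 2 in KO:HOM livers (16 fits), where 8 fold changes lost the call. With library size alone the signs of uncalled values changed in KO:HOM for Nags (0.041), Otc (0.073) and Gls2 (0.0028), in DN:HET for Nags (0.031) and Otc (0.041), between wild types for Nags (0.028) and Otc (0.015), and in the difference for Sds (0.23). Over all 48 livers they changed in DN:HET for Nags (0.035), Cps1 (0.041), Otc (0.057), Asl (0.012) and Hal (0.059), and in the difference for Sds (0.053). Otc in DN:HET also changed sign by DESeq2 (0.0029), upper-quartile scaling (0.0057), a mean CPM of at least 1 (0.00067) and each study alone (0.0072), and Nags between wild types under upper-quartile scaling (0.0024). Without DN:HET animals 4 and 22 the signs of uncalled values changed in DN:HET for Nags (0.033), Otc (0.12), Ass1 (0.0064), Asl (0.026), Hal (0.054) and Gls2 (0.0037). No paired analysis was possible because the animal numbers name different mice in each group and the labels tie no numbers to a litter, day or batch. The fewest reads of any of the 8 genes in a liver were 297 (Nags in KO:HET animal 3).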

Other observations

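Genes of gluconeogenesis and fasting, which use carbon from amino acids, moved in both directions in DN:HOM livers. Of 7 genes 3 were lower (Pcx, pyruvate carboxylase, at -1.24, G6pc1, glucose-6-phosphatase, at -1.24 and Fbp1 at -0.71), Igfbp1 was higher at 1.19, and Pck1 (0.18), Ppargc1a (0.36) and Fgf21 (0.05) were not called. Of all genes 30% were lower and 29.1% higher. In KO:HOM livers Igfbp1 was lower at -1.25 and the other 6 were not called. Over all 48 livers Igfbp1 was called in neither line (edgeR adjusted p = 0.16 and 0.062).

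Of 9 genes for regulators of hepatocyte metabolism, 6 were lower in DN:HOM livers, from Klf15 (-0.91) and Cebpa (-0.73) to Nr3c1, the glucocorticoid receptor (-0.31). Gcgr, the glucagon receptor, was among them at -0.50. Creb1 was higher at 0.29, and Hnf4a (-0.15) and Cebpb (-0.04) were not called. In KO:HOM livers 4 were lower, Foxo1 (-0.46), Klf15 (-0.41), Hnf4a (-0.35) and Cebpa (-0.33), and 0 were higher. Of all genes 30% and 7.87% were lower in these groups. Over all 48 livers 5 were lower in DN:HOM and 2 in KO:HOM livers, against 25% and 4.12% of genes.

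Markers of the remaining cell types were also counted. In DN:HOM and KO:HOM livers respectively, 4 and 6 of 6 T cell markers and 3 and 3 of 3 tested neutrophil markers were higher, against 29.1% and 11.5% of all genes. The counts over all 48 livers were 1 and 6 of 6 T cell markers and 2 and 1 of 3 neutrophil markers, against 23% and 8.79% of genes. Of 6 endothelial markers 4 were lower and 1 higher in DN:HOM livers, and 1 lower and 1 higher in KO:HOM livers. Of 4 B cell markers 1 was lower in DN:HOM and 0 in KO:HOM livers, and of 5 erythroid genes 2 and 1 were lower, against 30% and 7.87% of all genes. With 48 livers 4 endothelial markers were lower and 0 higher in DN:HOM livers, 1 was lower and 1 higher in KO:HOM livers, 0 B cell markers were lower in either line, and 1 and 0 erythroid genes were lower. In those fits 25% and 4.12% of all genes were lower.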
